A study of Volvox carteri with 12 samples.

Results

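The loci described here were abundant in gonidia, the reproductive cells of the multicellular green alga Volvox carteri, and low in its somatic cells. Of 9593 loci matched across the libraries, 162 had a mean level of at least 50 FPKM in 3 gonidia libraries (white light A and C, UV-B C; this mean is called G) and at least 8 times the mean of the 6 somatic libraries (called S). FPKM, the deposited unit, are fragments per kilobase of transcript scaled to the number of mapped fragments. The members were thus chosen by their measured G and S, so the difference between gonidia and somatic cells is given below as a description and was not tested. The same rule turned round gave 261 loci abundant in somatic cells, and 251 loci had G and S of at least 50 FPKM and within 1.5 times of each other; these 2 sets serve as comparisons.

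RNA was taken from gonidia and somatic cells of the wild-type strain Eve10, after maturation and before embryogenesis, from synchronous cultures kept at 28 °C with 16 h of light (100 µmol photons m-2 s-1 on average) and 8 h of dark. Cells of each type stayed in white light or received UV-B for 1 h at 0.056 mW/cm2, and polyA libraries were sequenced on an Illumina platform. The labels name 3 biological replicates, A to C, in each of the 4 groups. The library of gonidia under UV-B, replicate A, could not be used because its reference rows were all at 0, so 11 libraries remained, with 2 for UV-B gonidia. How the 2 cell types were separated is not given in the sources used here.

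A Volvox spheroid is divided between many small flagellated somatic cells, which carry it through the water and do not divide, and a few large gonidia, which grow and then cleave to form new spheroids. The stage sampled is the one at which gonidia have finished growing and have not begun to cleave. A bulk library shows the RNA of all cells in a fraction, so fewer cells of a type and less RNA per cell cannot be told apart.

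The deposited gene IDs came without names, and none of them was found in a RefSeq table of 14334 Volvox genes, so no member could be given a function and no list of marker genes could be read. The cell type labels could therefore not be checked against known markers. In the gonidia B libraries, which did not enter G, loci of the somatic set lay at a median of 26.5% of S in white light and 25.8% under UV-B. In the gonidia libraries of replicates A and C they lay at 2.46% to 5.85%, a low share that the choice of that set fixed. As a description of the chosen loci, the members held 4.60% to 6.42% of the FPKM of all matched loci in gonidia libraries and 0.391% to 0.652% in somatic libraries. The confidence limits in the tables implied a median of 1520 to 2275 fragments per member in gonidia libraries and 63.2 to 242 in somatic libraries, so somatic levels are the less precise ones.

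Members were lower in somatic cells, as the rule required, and few were listed at 0 there. The matching kept only loci with a row in every library, so a locus without a somatic row could not be a member. G ranged from 50.5 to 5367 FPKM with a median of 149.9, and 13 members exceeded 1000 FPKM. The median of S was 9.33 FPKM, and the median member had a somatic level of 5.95% of its G. G was 20 times S or more at 63 members, and 3 were listed at 0 in all 6 somatic libraries.

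The most abundant member was Vocar20006495m.g.2.0, a row of 337 bp on scaffold 7, 3247658 to 3247994. Positions are those of the deposited tables, whose genome build is not given in the sources used here. Its gonidia levels were 5276, 3517 and 5163 FPKM in white light (replicates A, B and C) and 3681 and 5663 FPKM under UV-B (B and C). Somatic levels were 348, 248 and 268 FPKM in white light and 366, 234 and 271 FPKM under UV-B. Every gonidia library lay above every somatic library, with 4652 ± 985 FPKM (SD, n = 3) in white-light gonidia and 288 ± 52.6 (SD, n = 3) in white-light somatic cells. Replicate B was the lowest in each group.

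The next by level was a row without an ID, 145 bp long, on scaffold 6, 1218896 to 1219040. It stood at 2295, 1666 and 2502 FPKM in white-light gonidia and at 1763 and 3097 under UV-B. In somatic cells it stood at 149.9, 82.2 and 105 FPKM in white light and at 151, 61.5 and 80.9 under UV-B. Again the cell types did not overlap. In 6 of the 11 libraries the row lay inside a longer row of at most 9.33 FPKM.

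Vocar20014342m.g.2.0 (scaffold 6, 1490660 to 1491991) had gonidia levels of 2469, 1394 and 2562 FPKM in white light and 1316 and 2625 under UV-B. Somatic levels were 156, 34.6 and 109 FPKM in white light and 161, 45.9 and 115 under UV-B. In both cell types the B libraries were lowest. Vocar20002398m.g.2.0 (scaffold 2, 136585 to 137742) showed this more widely: gonidia held 1240, 454 and 1398 FPKM in white light and 419 and 1431 under UV-B. In somatic cells the same locus was at 40.0, 3.12 and 23.9 FPKM in white light and at 41.7, 4.44 and 22.9 under UV-B, so that libraries of the same letter lay close together in either light.

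Vocar20013147m.g.2.0 (scaffold 30, 1351673 to 1353507) was the member of the top 12 nearest to the limit of 8 times, with G of 1686 and S of 189 FPKM. Vocar20008092m.g.2.0 (scaffold 15, 1482245 to 1484377) had G of 1638 and S of 48.5 FPKM, and no other row overlapped it in any library. Vocar20012508m.g.2.0 (scaffold 3, 4951823 to 4952530) had G of 1399 and S of 58.3 FPKM. Rows without an ID on scaffold 3 (2603265 to 2603913) and scaffold 22 (96460 to 97095) had the largest ratios of the 12, with G of 1325 and 1144 FPKM and S of 19.4 and 16.8 FPKM, or 68.3 and 68.0 times.

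For 3 of the 12, the division into rows bears on the level. Vocar20004622m.g.2.0 (scaffold 8, 3161808 to 3162554; G 1595, S 82.2 FPKM) lay inside a longer row in every library, which held 0 to 31.1 FPKM in gonidia and 33.9 to 73.9 FPKM in somatic cells. Vocar20012537m.g.2.0 (scaffold 3, 389011 to 389661) was at 947, 476 and 1030 FPKM in white-light gonidia and at 515 and 1188 under UV-B. It was at 125, 37.6 and 0 FPKM in white-light somatic cells and at 19.9, 9.88 and 0 under UV-B. In the 2 libraries where it was listed at 0, a separate row over its left end held 60.3 and 71.2 FPKM. The row on scaffold 2, 210495 to 224266, spans 13772 bp and had somatic levels of 341, 188 and 71.4 FPKM in white light and 59.6, 166 and 52.1 under UV-B, against 650 to 1480 FPKM in gonidia.

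**Figure D1:**
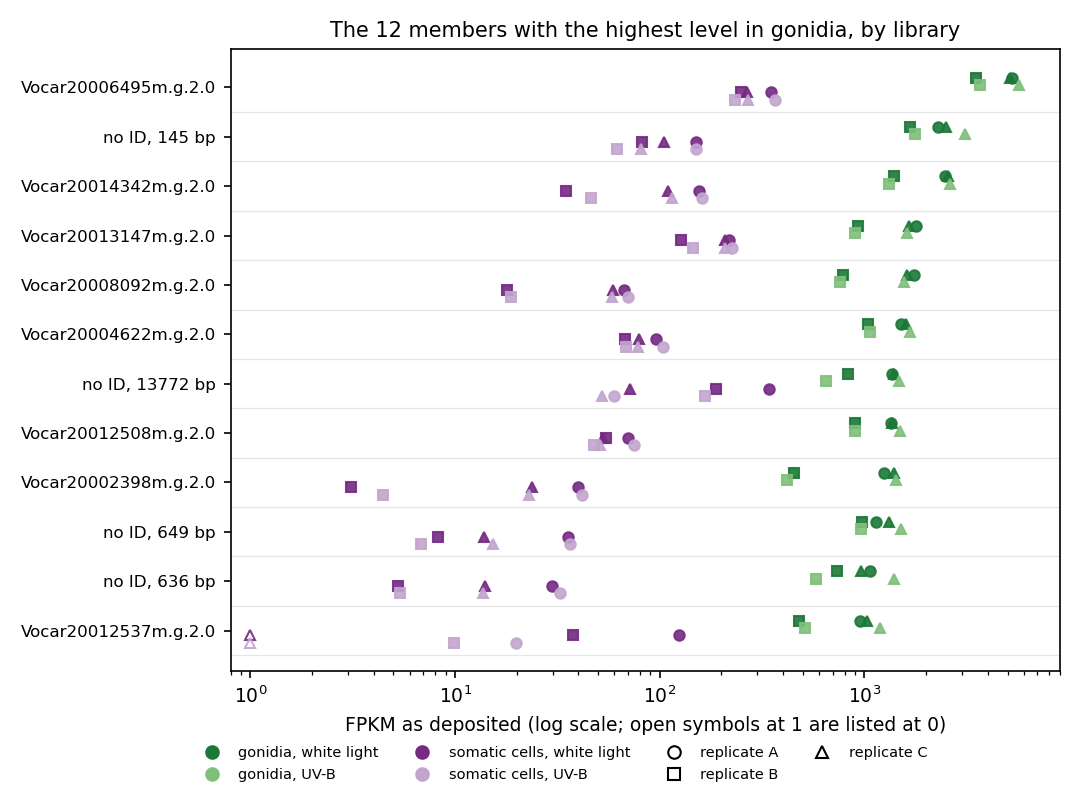
Level of the 12 members with the highest G in each of the 11 libraries, in FPKM as deposited on a log axis, with 1 symbol per library, colour for the group and shape for the replicate letter. Gonidia and somatic libraries do not overlap at any of the 12. The rule chose these loci for high G and low S, so this is a description. Replicate B is often the lowest in its group, and Vocar20012537m.g.2.0 is listed at 0 in 2 somatic libraries.

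The members were unlike other loci in length and annotation, on which the rule set no limit. Length still entered the choice, because FPKM are per kilobase and rows were linked by overlap as a share of the longer row. Their median length was 1785 bp, against 4170 bp over all matched loci. It was 2909.5 bp over the 1460 loci with G or S of at least 50 FPKM. The somatic set had a median of 4683 bp and the equal set 2335 bp. A reference ID was counted if any library gave one, and 12 members had one in all 11 libraries. On this count an ID was carried by 80 of 162 members (49.4%) and by 59.2% of all matched loci. A further 57 members, 35.2%, had no ID and were shorter than 600 bp, a limit chosen after the lengths were seen; over all matched loci such rows were 155, or 1.62%. In the somatic set they numbered 2 (0.766%) and in the equal set 7 (2.79%). Over the 1460 abundant loci, which include the members, they numbered 90 (6.16%). Members thus made up 57 of the 155 short rows without an ID in the series. With limits of 400 and 1000 bp the members among such rows numbered 51 and 63. The remaining 25 members had no ID and were longer, with a median of 3434 bp.

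The 57 short rows had a median length of 359 bp (145 to 527) and lay on 33 scaffolds. Their median G was 195 FPKM, against 114 for members with an ID and 312 for the longer rows without one. None of the 57 had the same start and end in all 11 libraries, whereas 50 of the 80 members with an ID did. Among the 25 longer rows without an ID, 3 did, so this was not particular to the short rows. The somatic level of the short rows was a median of 6.41% of G, and that of members with an ID 5.04%. The other 98 short rows without an ID had G above S in 49 cases and a median G of 9.27 FPKM.

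The short rows also varied together over the gonidia libraries. As deposited, their median level was 86.6%, 61.3% and 96.3% of G in white light A, B and C and 61.2% and 119% in UV-B B and C. UV-B C was the highest of the 5 libraries at 48 of the 57. Members with an ID stood at 105%, 66.3% and 99.8% in white light and at 64.8% and 93.7% under UV-B, and UV-B C was the highest at 19 of 80. After scaling by median-of-ratios factors, UV-B C was the highest at 56 of the 57 and at 44 of the 80. Its factor, 0.807, was the lowest of the 11 libraries, which raises its scaled values. At the 25 longer rows without an ID, UV-B C was the highest at 12 as deposited and at 19 after scaling. Among the 70 short rows outside the members with G over 5 FPKM, UV-B C was the highest at 13. That count is from FPKM as deposited, so it stands beside the 48 of 57 and not beside the scaled counts. White light A, white light C and UV-B C define G, so only the levels in the B libraries are free of the rule.

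**Figure D2:**
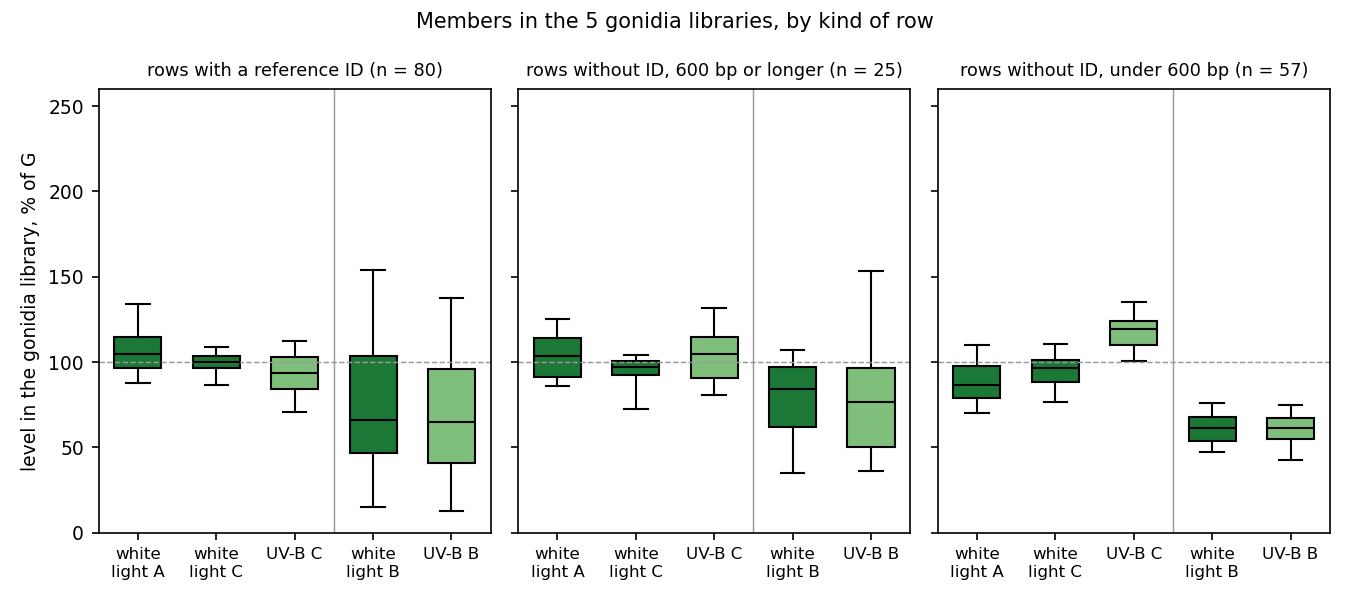
Level of the members in each gonidia library as a percent of G, by kind of row; boxes show the quartiles and the median, whiskers the 5th and 95th percentiles, and the vertical line sets apart the B libraries, which G does not contain. Short rows without an ID form a narrow band with medians of 61.3% and 61.2% in the B libraries, while members with an ID spread widely there.

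The levels of the gonidia B libraries did not enter G, and there the members stood at a lower level. Both B libraries exceeded every somatic library at 157 of 162 members, against 43.1% of all matched loci. The somatic side of that count is the rule's own, since low S chose the members, so it is a description. The median member stood at 63.9% of G in white light B and at 63.7% in UV-B B. Both libraries held at least 50 FPKM at 120 members and at least 8 times S at 110, and 88 met both limits. After median-of-ratios scaling the medians were 44.8% and 44.2%. The higher level of somatic loci in these libraries, given above, moved with this; its part in the result was not tested.

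The 2 B libraries resembled each other closely. The ratio of UV-B B to white light B had a median of 0.963 and was within 1.5 times at 151 members. Across members the mean of the B libraries ranged from 0.287% to 331% of G, with 34 members below 50% and 27 above 100%. None of the 27 was a short row without an ID.

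Vocar20006171m.g.2.0 (scaffold 12, 2148649 to 2153738) was among the members lowest in replicate B. It held 182, 30.7 and 157 FPKM in white-light gonidia and 28.1 and 158 FPKM under UV-B. Its somatic levels were 30.0, 3.59 and 17.2 FPKM in white light and 28.7, 3.77 and 16.7 FPKM under UV-B. Replicate B was low in both cell types, and its white-light gonidia level barely exceeded the highest somatic level. Vocar20003287m.g.2.0 (scaffold 21, 1636759 to 1641189) had 88.4, 4.98 and 61.5 FPKM in white-light gonidia and 4.57 and 53.4 under UV-B, with 0.160 to 0.857 FPKM in somatic cells. No other row overlapped it in any gonidia library.

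At other members with a low B level, rows inside them held signal in the B libraries. Vocar20007065m.g.2.0 (scaffold 74, 11749 to 15605) measured 79.2 and 85.9 FPKM in white light A and C and at 93.8 in UV-B C, but at 1.02 and 0.340 FPKM in the B libraries. There a shorter row within it held 80.6 FPKM in white light and 72.1 under UV-B. In the somatic libraries its own row was at 0.445 to 2.50 FPKM. The highest rows within it held 4.70 to 909 FPKM there, so its low S also goes with a different division. The row on scaffold 13, 288704 to 300719, was at 306, 0 and 308 FPKM in white light and at 8.95 and 382 under UV-B, and rows within it held 793 and 1978 FPKM in the B libraries. For these loci the low B value goes with a different division into rows.

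Several of the members highest in replicate B had the opposite pattern. Vocar20006417m.g.2.0 (scaffold 7, 277224 to 280494) held 202, 332 and 175 FPKM in white-light gonidia and 316 and 148 under UV-B. Its somatic levels were 11.7, 19.5 and 8.37 FPKM in white light and 10.4, 17.7 and 7.80 under UV-B. Both B libraries were the highest of their cell type. Vocar20012896m.g.2.0 (scaffold 3, 674953 to 678535) had 68.9, 117 and 57.3 FPKM in white light and 115 and 45.9 under UV-B in gonidia. Vocar20008623m.g.2.0 (scaffold 1, 8689620 to 8694360) had 155, 235 and 120 FPKM and then 226 and 102, and the row on scaffold 13, 2234207 to 2240352, had 273, 346 and 165 FPKM and then 358 and 157. All 4 were higher in B than in A and C in white light, and higher in B than in C under UV-B. The member with the highest B share, the row on scaffold 44 at 17727 to 23485 (331% of G), did not share this pattern. Its white-light B level of 120 FPKM lay between A and C, at 144 and 117, and its share came from UV-B B, at 667 FPKM.

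The somatic B libraries were compared with somatic A and C in the same way. Their mean was the lower one at 115 of 162 members (71.0%), with a median of 74.0% of A and C. Of the 34 members with a B level below 50% of G, 31 were lower in somatic B, at a median of 38.0%. Of the 101 members between 50% and 100%, 74 were lower, at a median of 76.6%. Of the 27 members above 100%, 10 were lower, and the median was 131%. The log ratio of B to A and C was also taken in each cell type, here from median-of-ratios scaled FPKM + 1. Across the 162 members the ratios of gonidia and somatic cells had a Pearson correlation of 0.27 and a Spearman correlation of 0.46. It was 0.63 (Spearman) over the 80 members with an ID, 0.14 over the 57 short rows, 0.19 over all 7540 loci tested, 0.55 over the 251 equal loci and 0.19 over the 261 loci of the somatic set. These are descriptions across loci that share the same libraries.

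**Figure D3:**
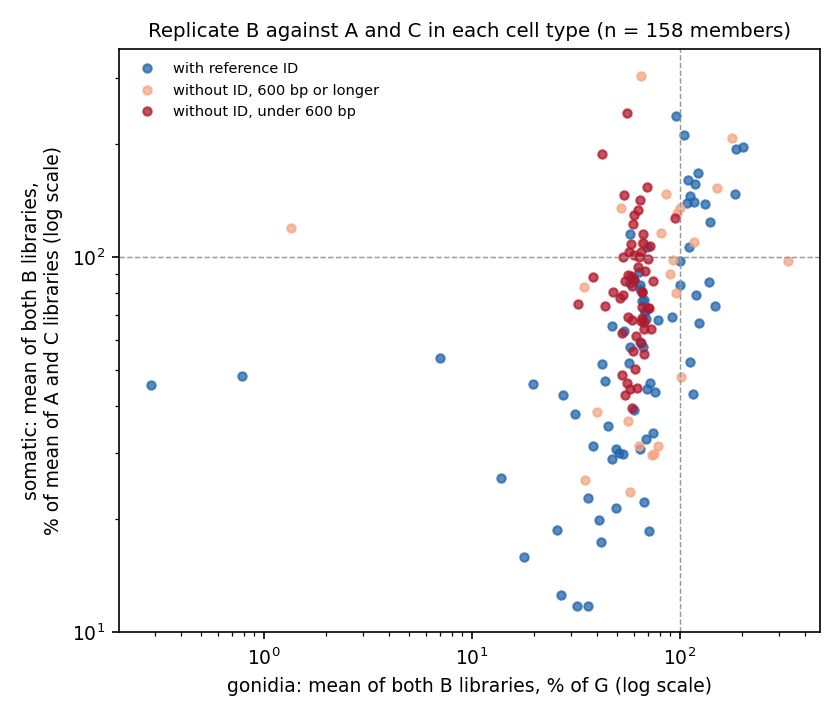
Each point is a member, with the mean of the gonidia B libraries as a percent of G (x, log axis) against the mean of the somatic B libraries as a percent of the mean of the somatic A and C libraries (y, log axis); 158 members are drawn and 4 with a somatic B or A and C level of 0 are not. Members with an ID run from low in both to high in both, while the short rows without an ID stay in a narrow range of x.

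Most members had no other member close by. They lay on 55 of the 207 scaffolds with matched loci, with at most 13 on one scaffold. Only 20 members had another within 10 kb, in 9 groups, 2 of them of 3 members and 7 of 2.

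The group of 3 on scaffold 8 spanned 1228042 to 1248455. Vocar20004473m.g.2.0, Vocar20004706m.g.2.0 and Vocar20004699m.g.2.0 had G of 86.9, 114 and 70.7 FPKM and S of 7.80, 2.90 and 2.56 FPKM. The next matched locus, Vocar20004278m.g.2.0, had G of 31.9 and S of 0.785 FPKM, which is 40.6 times but under the limit of 50 FPKM. In all 3 members the B libraries were close to G, at 119%, 112% and 109%.

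On scaffold 6 the group ended beside loci of the opposite kind. Its members at 1138134 to 1139844, 1145392 to 1147722 and 1147672 to 1150657 (the last is Vocar20014151m.g.2.0) had G of 55.6, 55.0 and 63.3 FPKM and S of 6.02, 3.47 and 2.28 FPKM. The next 3 matched loci, from 1151769 to 1155075, had G of 1.80, 2.64 and 2.45 FPKM and S of 54.9, 76.6 and 65.5 FPKM. The change from a gonidial to a somatic locus thus lay between positions 1150657 and 1151769. The row at 1138134 to 1139844 lay inside another matched row, which ran to 1145170 and had G of 18.8 and S of 1.47 FPKM.

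The pair on scaffold 30 shared its letter pattern. Vocar20013187m.g.2.0 (524153 to 528673) had 347, 116 and 285 FPKM in white-light gonidia and 89.9 and 223 under UV-B. Vocar20013042m.g.2.0 (531914 to 535748) had 756, 302 and 706 FPKM and then 256 and 580. Both were low in B, and the matched loci on either side had G of 7.64 and 7.79 FPKM. In the pair on scaffold 3, Vocar20013017m.g.2.0 (2592473 to 2600008) had G of 70.2 FPKM with B at 31.2% of it, and its neighbour at 2603265 had B at 73.3%.

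**Figure D4:**
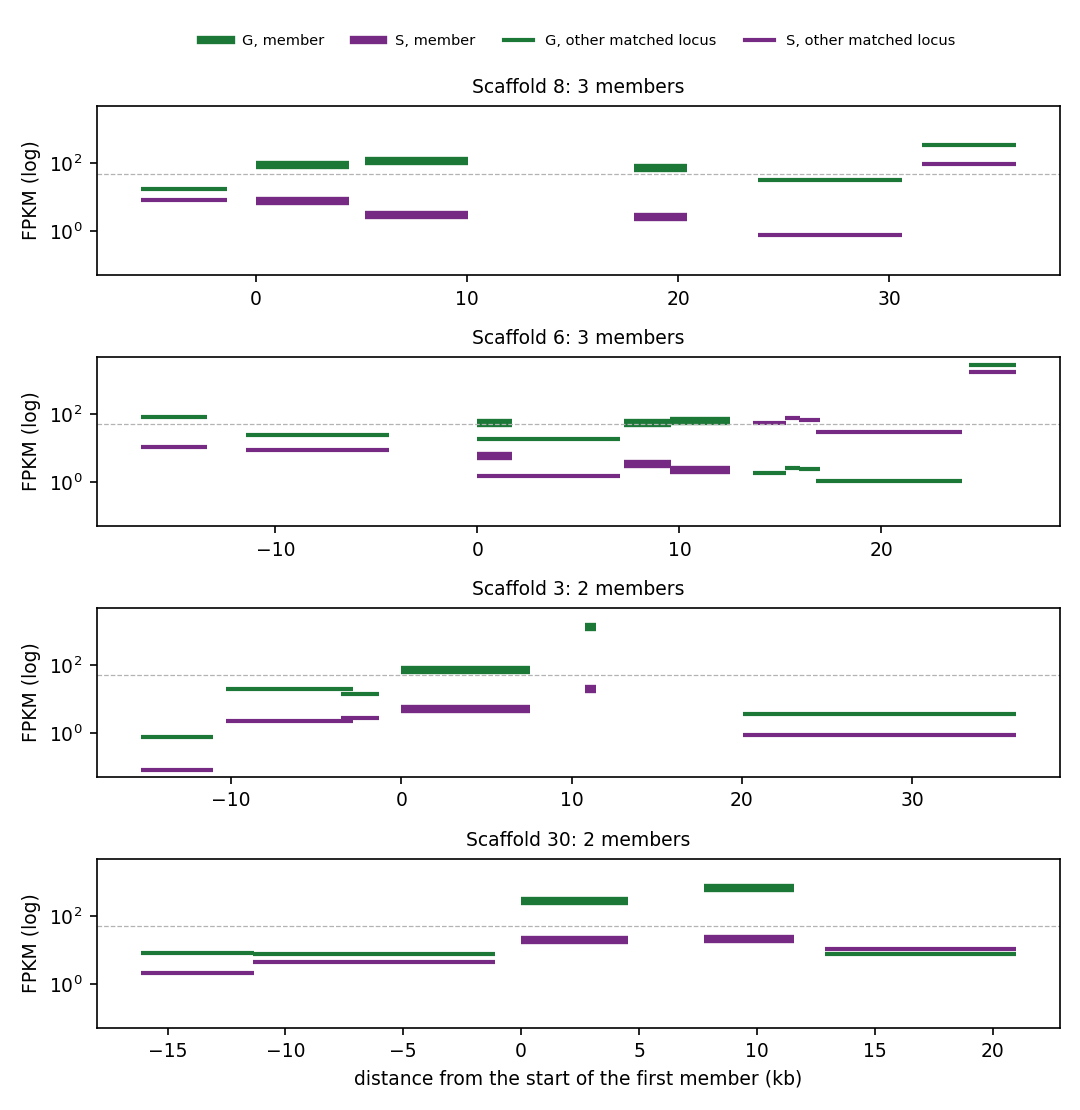
G (green) and S (purple) in FPKM on a log axis for the matched loci around 4 groups of neighbouring members, drawn to scale against the distance in kb from the start of the first member; thick lines are members and the dashed line is 50 FPKM. On scaffold 6 the next 4 matched loci to the right of the members have S above G.

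The 3 members listed at 0 in every somatic library differed in how far that can be read. Vocar20014628m.g.2.0 (scaffold 27, 1611105 to 1613288) held 63.2, 40.0 and 54.8 FPKM in white-light gonidia and 38.9 and 50.9 under UV-B. Other rows overlapped it by at most 1.42% of its length. Vocar20007903m.g.2.0 (scaffold 15, 1869453 to 1871963) held 83.2, 99.9 and 81.5 FPKM and then 97.1 and 76.1. A row that overlapped its left end by at most 2.03% of its length in somatic libraries held 59.1 to 177 FPKM there.

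Vocar20004025m.g.2.0 (scaffold 36, 451904 to 454803) was at 72.2, 0 and 74.0 FPKM in white-light gonidia and at 51.0 and 78.5 under UV-B. A row that covered 56.2% or more of it held 528 to 783 FPKM in somatic libraries. It was one of 5 members at which a B library did not exceed every somatic library. The others were Vocar20007065m.g.2.0, Vocar20006171m.g.2.0, the row on scaffold 13 at 288704, and Vocar20012114m.g.2.0.

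At 5 of the 162 members G rested on uneven libraries, since the 3 values behind G differed by more than 4 times. Vocar20002283m.g.2.0 (scaffold 20, 1341847 to 1347568) reached 1230 FPKM in white light C and between 0.236 and 1.73 in the other 4 gonidia libraries. Vocar20013142m.g.2.0 (scaffold 30, 1210655 to 1219604) reached 1395 and 1688 FPKM in white light B and C and between 0.285 and 2.98 in white light A and both UV-B libraries. In the 2 libraries where it was high, its row began at 1208820. Vocar20012114m.g.2.0 (scaffold 534, 455 to 1908) measured 22.6, 17.6 and 20.8 FPKM in white light and at 19.3 and 236 under UV-B. Of the 3 libraries behind G, 1 was high at each of these members.

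Around the limits of the rule the values were continuous. The members with the lowest G had 50.5, 51.2 and 51.8 FPKM, and the loci just below had 49.9, 48.5 and 48.5 FPKM. The members with the lowest ratio had 8.36, 8.43 and 8.47 times, and the loci just below had 7.97, 7.96 and 7.96 times.

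UV-B was then compared with white light in gonidia, within a limma fit over the 7540 loci that reached 1 FPKM in 3 libraries or more; 161 of 162 members entered it. Of the members, 0 were higher and 0 lower under UV-B at an adjusted p under 0.05 (limma, Benjamini-Hochberg), against 0% and 0.0133% of all loci. At an unadjusted p under 0.05 there was 1 member, 0.621%, against 135 of all loci, 1.79%. The standard errors of the members were larger, with a median of 0.54 log2 units against 0.32 over all loci. These 2 shares are therefore not directly comparable. The median change of the members was 0.02 log2 units and that of all loci 0.00. As G contains 2 white-light libraries and 1 UV-B library, this contrast is not fully independent of the rule. In the B pair, which is, the median change was -0.08, against -0.01 over all loci; in the C pair it was 0.22 against -0.01.

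The member with the lowest p was Vocar20013142m.g.2.0, at a log2 change of -6.18 ± 2.38 (SE) with an adjusted p of 1.0 (limma). Its values are those given above: low in both UV-B libraries, but also in white light A. With the replicate letter within each cell type as a block, this member alone was called lower (log2 change -9.41, adjusted p = 0.034, limma). Over all loci that fit called 2 lower and 0 higher. Gonidia have only 2 such pairs, B and C. White light A, where this member was also low, has no UV-B partner and so did not bear on that call. At an unadjusted p under 0.05 (limma) the blocked fit had 11 members, 6.83%, against 374 of all loci, 4.96%. The row on scaffold 44, 17727 to 23485, was at 144, 120 and 117 FPKM in white light and at 667 and 95.8 under UV-B, a change of 1.05 ± 0.52 with an adjusted p of 1.0 (limma). Only UV-B B was high, as given above. Vocar20013251m.g.2.0 (scaffold 31, 1132226 to 1133960) measured 98.6, 9.92 and 80.4 FPKM in white light and at 8.59 and 20.9 under UV-B, where the lights overlapped.

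Directions by pair are those of scaled FPKM. Both gonidia pairs were higher under UV-B at 44 of 161 members, 27.3%, against 23% of all loci. Both were lower at 34, 21.1%, against 28.9%. Neither share was tested.

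In somatic cells, which chose the members only through the mean of both lights, 0 of 161 members were higher and 0 lower under UV-B at an adjusted p under 0.05 (limma), against 0.0796% and 0% of all loci. At an unadjusted p under 0.05 there were also 0 members, against 347 of all loci, 4.60%. Here too the members had larger standard errors, with a median of 0.48 log2 units against 0.29, so these shares are not directly comparable. The median change of the members was -0.09 log2 units, against -0.03 over all loci. By pair it was -0.13 for A, -0.03 for B and -0.14 for C, where all loci had -0.04, -0.03 and -0.03.

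All 3 somatic pairs were lower under UV-B at 53 members, 32.9%, against 26.8% of all loci. All 3 were higher at 12, 7.45%, against 16%. The row on scaffold 52, 204364 to 204733, had the lowest p. Its white-light levels were 10.97, 9.24 and 11.6 FPKM as deposited and its UV-B levels 9.01, 4.35 and 5.47 FPKM, lower in each pair. The change in scaled FPKM was -0.82 ± 0.43 (SE, adjusted p = 1.0, limma). Vocar20006730m.g.2.0 (scaffold 7, 86746 to 89928) measured 11.7, 17.8 and 5.21 FPKM in white light and at 5.74, 10.8 and 4.42 under UV-B, so the lights overlapped although each pair was lower. The row on scaffold 54, 538911 to 539233, was at 22.6, 15.2 and 15.4 FPKM and then at 10.8, 15.9 and 8.34. The long row on scaffold 2 at 210495, described above, had a change of -1.15 ± 0.68 (SE, adjusted p = 1.0, limma), most of it in pair A.

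The somatic letters paired the libraries, so the fit was repeated with the letter within each cell type as a block. It too called 0 of 161 members in somatic cells, with 8 higher and 25 lower at an unadjusted p under 0.05 and a lowest adjusted p of 0.0885 (limma). Together these are 20.5% of the members, near the 18.4% of all loci at that p in the same fit. The 5 members with the lowest p in that fit were picked after their values were seen. Vocar20013187m.g.2.0 was at 42.0, 4.03 and 24.4 FPKM in white light and at 30.0, 2.62 and 17.1 under UV-B, lower in each pair (blocked change -0.58 ± 0.06, SE). Its neighbour Vocar20013042m.g.2.0 was at 33.5, 7.10 and 30.9 FPKM and then at 29.8, 4.69 and 24.1, also lower in each pair. Vocar20005984m.g.2.0 (scaffold 12, 922183 to 930790) was at 33.8, 7.24 and 25.9 FPKM and then at 27.8, 4.15 and 18.8, lower in each pair too. Vocar20006948m.g.2.0 (scaffold 73, 138512 to 140077) was at 36.9, 9.46 and 27.4 FPKM and then at 53.0, 15.7 and 45.9, higher in each pair, as was Vocar20002239m.g.2.0 (scaffold 20, 673251 to 676329) at 30.6, 3.35 and 12.2 and then 47.1, 7.80 and 30.0.

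The difference between the cell types in their response to UV-B passed the threshold at 0 of 161 members in either direction (limma, adjusted p under 0.05), against 0.0398% of all loci with a higher response in somatic cells and 0% with a lower one. At an unadjusted p under 0.05 there were 0 members, against 161 of all loci, 2.14%. The median standard error was 0.72 log2 units for the members and 0.43 over all loci. With the letter within each cell type as a block, 0 members were called (lowest adjusted p of 0.0575, limma). At an unadjusted p under 0.05 that fit had 4 members higher and 14 lower. Together these are 11.2% of the members, against 7.25% of all loci. The median difference, somatic minus gonidia, was -0.08 log2 units, against -0.04 over all loci. Somatic pairs were all lower and gonidia pairs both higher at 11 members, 6.83%, against 3.75% of all loci. The reverse held at 2, 1.24%, against 2.97%. All 5 pairs were lower under UV-B at 18 members, 11.2%, against 10.6% of all loci, and all 5 higher at 3, 1.86%, against 5.78%.

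**Figure D5:**
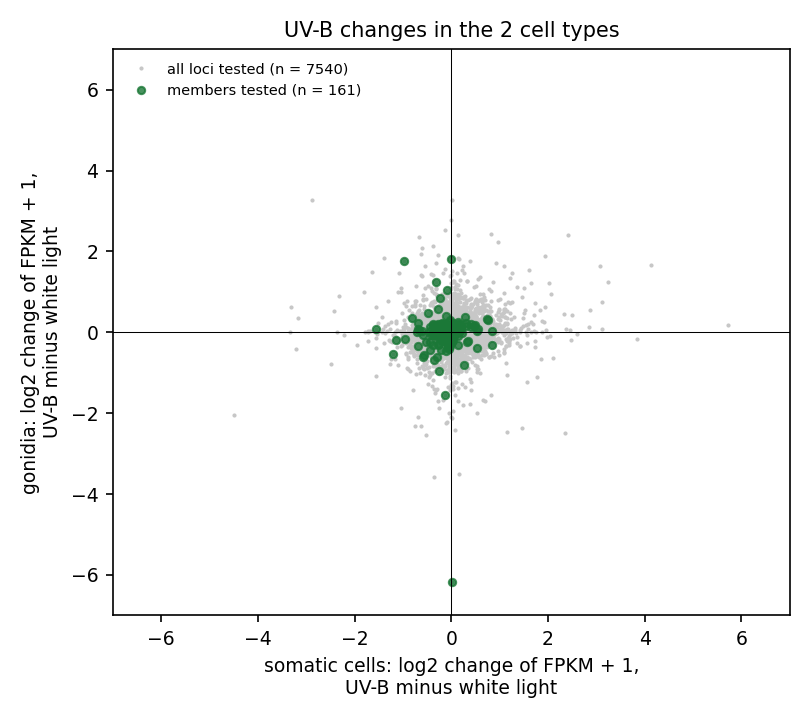
Log2 change of scaled FPKM + 1 under UV-B in somatic cells (x) and gonidia (y) for the 161 members tested (green) among all 7540 loci (grey). The members lie around 0 on both axes; the point at -6.18 is Vocar20013142m.g.2.0, and no member passed an adjusted p of 0.05.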

How the data were processed

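The 12 deposited tables, 1 per library, hold gene FPKM computed by the authors, with 95% confidence limits, per the file headers. Per the submitters' processing notes the tools included TopHat2 (version 2), Cuffdiff (version 2) and Cufflinks (version 2.0.1). Build and annotation: not given in the sources used here. All 4073 reference rows of UV-B gonidia A were at 0, so the fit planned on 12 libraries was made on 11.

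Rows are listed separately in each table and were matched by position: an overlap of 80% or more of the longer row linked rows, and linked sets of exactly 1 row per library became loci. A locus divided differently between libraries is missing or split. Positions are the commonest start and end. Implied fragments were computed from each value and its upper confidence limit as if only counting error were present.

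For UV-B, FPKM were divided by median-of-ratios factors, filtered at 1 FPKM in 3 libraries and analysed as log2(FPKM + 1), which understates changes of low loci, with limma 3.58.1 in R 4.3.3 (a mean per group, intensity trend, Benjamini-Hochberg adjustment over 7540 loci, threshold 0.05). The procedure was tested on simulated data. Python 3.11.15 was used for the matching. The deviations from the group mean correlated between libraries of the same letter at 0.351, 0.447 and 0.202 in somatic cells (A, B, C), which paired them, and at 0.705 and 0.624 in gonidia (B, C). What a letter shares is not given in the labels.

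The members and lists were chosen with earlier results of these data known. Loci named are the 12 with the highest G, the 6 lowest and 6 highest in the B libraries as a share of G, the 4 lowest p of each UV-B contrast, those at the limits of the rule, the 4 largest neighbour groups (ties by summed G), and members listed at 0 in all somatic libraries; exceptions are marked. Alternatives covered scaling, pseudocount, filters, overlap, limits of the rule, blocks, weights and left-out libraries.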

Additional observations from a re-analysis of the deposited data

Results flagged for a closer look

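At 6 of the loci named above, all 3 somatic pairs differed one way under UV-B and both gonidia pairs the other, in median-of-ratios scaled FPKM. In FPKM as deposited this held at 3 of the 6: Vocar20003287m.g.2.0, Vocar20012114m.g.2.0 and the row on scaffold 6 at 1145392. None of the 6 differences passed the test of the difference itself (limma, adjusted p = 1.0 for each); the values are somatic minus gonidia on the log2 scale. The difference was 1.07 for Vocar20003287m.g.2.0 (scaffold 21), higher in each somatic pair at under 1 FPKM. It was -2.75 for Vocar20012114m.g.2.0 (scaffold 534), whose gonidia value rests on UV-B C. It was -0.45 for the row on scaffold 6 at 1145392, -0.57 for the row on scaffold 6 at 1218896, -0.17 for Vocar20006495m.g.2.0 and -0.11 for Vocar20004622m.g.2.0. Over all members, 11 (6.83%) were lower in the somatic and higher in the gonidia pairs, against 3.75% of all loci. The reverse held at 2 (1.24%), against 2.97%.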

How the results depend on the processing

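The number of members was 270 with rows linked at 50% overlap and 107 at 90%, 105 at 100 FPKM, 285 at 4 times and 87 at 16 times, and 160 to 174 with 1 library left out. With scaled FPKM it was 184, all 162 members among them. With all 5 gonidia libraries in G it was 162, of which 142 were the same loci. In the B libraries the median level was 44.8% and 44.2% of G after scaling. No UV-B setting called a member in somatic cells. In gonidia 1 member, Vocar20013142m.g.2.0, was called with the replicate block within each cell type (log2 change -9.41, adjusted p = 0.034, limma). It was also called without white-light gonidia replicate A (0 to 1 members over the left-out libraries). The gonidia pairs are only 2. Both settings take white-light gonidia replicate A out of this contrast, and the log2 change was -9.41 in each. That library moved the difference between cell types likewise (0 to 1). With the letter shared by both cell types the block called 0 members in each contrast. The median gonidia change ran from -0.67 without UV-B gonidia replicate C to 0.74 without replicate B, and the difference from -0.81 to 0.58, each with a lone UV-B gonidia library, whose spread is taken from the other groups. The somatic median ran from -0.30 to 0.08. Single loci changed sign in 8 cases, none of them called. On scaffold 44 the gonidia change was -0.18 without both B libraries and ran from -0.0013 to 2.10 over left-out libraries. For Vocar20012114m.g.2.0 it ran from -0.34 to 3.87. Somatic changes ran from -1.56 to 0.40 for Vocar20013187m.g.2.0, -1.20 to 0.40 for Vocar20013042m.g.2.0, -1.28 to 0.25 for Vocar20005984m.g.2.0 and -0.11 to 1.15 for Vocar20006948m.g.2.0. The cause was not tested. Loci without a row in every library are not covered here, and somatic levels rest on the fewest fragments.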
